A study of Homo sapiens with 38 samples.

Results

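The messenger RNAs of the 10 core and accessory subunits of Polycomb repressive complex 2 (PRC2) were followed in human neuroblastoma cell lines. The members were taken by gene symbol, as EZH2, EZH1, SUZ12, EED, JARID2, MTF2, PHF19, AEBP2, RBBP4 and RBBP7, and all 10 were found among the 49070 genes that every count file lists. All 10 also passed the filter on low counts in each experiment. Total RNA had been sequenced from 27 libraries. BE2C, a line derived from neuroblastoma that carries amplified MYCN, received 2.5 µM of GSK-J4, which inhibits the H3K27 demethylases KDM6A and KDM6B, for 0 h, 24 h or 48 h (2 libraries each). BE2C cells were also transfected for 72 h with a control siRNA (siCtrl, 2 libraries) or with 1 of 3 siRNAs against KDM6B named N1, N2 and N33 (siKDM6B, 1 library each). CHLA15 and CHLA20 cells received palbociclib, an inhibitor of the kinases CDK4 and CDK6, at 300 nM, and NB1643 and NB1691 cells at 3 µM, for 72 h beside a control of each line (2 libraries per line and condition). The dose therefore changes with the line, and no library taken at 24 h or 48 h without GSK-J4 was analysed here, so that line and dose, and GSK-J4 and time in culture, cannot be told apart.

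PRC2 places methyl groups on lysine 27 of histone H3, the mark that KDM6A and KDM6B remove, and chromatin that carries the trimethylated form is usually silent. EZH2 or its paralog EZH1 is the catalytic subunit, and it needs SUZ12 and EED to be active, while RBBP4 and RBBP7 are histone-binding WD40 proteins that PRC2 shares with other complexes. The accessory subunits define alternative forms of the complex: MTF2 and PHF19 are Polycomb-like proteins that recruit one form to chromatin, whereas JARID2 and AEBP2 belong to the other. EZH2 is known as a gene of dividing cells under the control of the pRB and E2F proteins, the pathway through which CDK4/6 inhibitors act, and EZH1 is known to be retained in cells that do not divide.

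Total counts per library were 36186567 to 63433818 in the GSK-J4 experiment, 41227956 to 50776662 in the siRNA experiment and 45457371 to 93011010 in the palbociclib experiment. Levels are CPM, counts relative to the library total, scaled by the trimmed mean of M-values (TMM) within an experiment, and 3 counts correspond to at most 0.0829 CPM. All members lay far above that floor. Labels do not say whether the 2 libraries of a group came from separate cultures, so that p-values measure only the spread between these libraries.

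Some libraries went against their labels. In the libraries labelled siKDM6B, KDM6B was at 8.99, 7.11 and 8.26 CPM (N1, N2 and N33) against 6.47 and 8.76 CPM in siCtrl, and the N33 library stood apart with MKI67, a proliferation marker, at 33.9 CPM against 147 and 136 CPM with N1 and N2. NB1691 is known as a line with MYCN amplification, but MYCN was at 86.1 and 86.5 CPM in the control libraries labelled NB1691, against 3093 and 3257 CPM in NB1643. The 4 fibroblast markers summed to 16340 and 16639 CPM in those NB1691 controls and to 21154 and 22029 CPM with palbociclib, with all 4 above 1 CPM, against 13.2 to 310.2 CPM in the other libraries of that experiment. Summed levels of the 5 mesenchymal markers were 64601 and 64684 CPM in the NB1691 controls, and those of the 8 adrenergic markers 344.9 and 370.1 CPM, against 1912 to 2919 CPM in the controls of the other lines. The haematopoietic markers PTPRC, CD3E and CD68 summed to at most 0.896 CPM in any library. Their part in the values of the libraries labelled NB1691 was not tested, and the counts of members, ratio tests and similar patterns over lines are given with and without them.

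Because the palbociclib experiment bears on the pRB and E2F pathway, the start regions of the members were searched for the letters of a common E2F site. RefSeq promoters of 250 bases before to 50 bases after a start (GRCh38.p14) were searched on both strands for TTTCCCGC, TTTCGCGC, TTTGCCGC and TTTGGCGC. All 10 members matched, with 15 promoters between them, and 6 of these 15 held 1 of the 4 words, in 6 members, whereas 3.31% of all 35116 promoters did. The 30 bases around each match are given on the strand of the gene, 5′ to 3′, with the word, or its reverse complement, in capitals.
EZH2 (chr7:148884272-148884301, minus strand): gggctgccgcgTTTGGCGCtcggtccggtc
EZH1 (chr17:42745137-42745166, minus strand): gcggggttttgGCGGCAAAtgacagtagtg
SUZ12 (chr17:31936807-31936836, plus strand): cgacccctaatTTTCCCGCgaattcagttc
MTF2 (chr1:93079277-93079306, plus strand): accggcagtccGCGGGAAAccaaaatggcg
PHF19 (chr9:120877322-120877351, minus strand): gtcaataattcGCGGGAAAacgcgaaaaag
AEBP2 (chr12:19440438-19440467, plus strand): caaggcgacgtTTTGCCGCgatccccctgc
Counted from the start along the strand of the gene, the first capital letter lay at 2 in EZH2, 6 in MTF2, -115 in EZH1, -150 in AEBP2, -152 in PHF19 and -189 in SUZ12. EED, JARID2, RBBP4 and RBBP7 held none of the 4 words in these windows. A shorter form without the first T, which lies inside every longer match, was found in 13% of all promoters. It was also found in 2 of 2 promoters of RBBP4, which overlap and hold the same matches, and in 1 of 2 of RBBP7. These matches describe the letters only and are no evidence of binding.

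The mRNA of the methyltransferase EZH2 fell with palbociclib in all 4 lines. EZH2 (GRCh37 chr7:148504349-148581413, minus strand) was at 112 and 114 CPM in CHLA15 controls and at 85.3 and 87.2 CPM with palbociclib. CHLA20 gave 119 and 122 CPM without and 83.7 and 86.5 CPM with the drug. Every treated library of these lines was below every control, and the fitted log2 changes were -0.39 (SE 0.05) and -0.50 (SE 0.05), with adjusted p of 1.48e-05 and 7.47e-07 by edgeR's quasi-likelihood test, which gives the adjusted p-values of all members that follow. In NB1643 the level went from 59.7 and 62.9 to 21.7 and 21.8 CPM, a log2 change of -1.496 (SE 0.06, adjusted p = 1.63e-13), or 2.82-fold lower. In the libraries labelled NB1691 it went from 32.9 and 33.4 to 12.5 and 11.2 CPM, a log2 change of -1.48 (SE 0.06, adjusted p = 8.01e-13). In bulk RNA, fewer cells that express a gene and less of its RNA per cell cannot be told apart.

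The paralog EZH1 (chr17:40852293-40897067, minus strand) changed less than EZH2 in every line but CHLA15. EZH1 passed the threshold only in CHLA15, where it went from 38.1 and 40.3 to 26.1 and 31.5 CPM (log2 change -0.44, SE 0.09, adjusted p = 0.00147). In CHLA20 it read 40.7 and 32.4 CPM in controls and 36.1 and 35.0 CPM with palbociclib, a log2 difference of -0.04 with a 95% interval of -0.24 to 0.16. The NB1643 controls were at 30.7 and 27.9 CPM and the treated libraries at 24.5 and 26.1 CPM (-0.21, interval -0.42 to -0.008, adjusted p = 0.093). The libraries labelled NB1691 held 57.2 and 52.4 CPM without and 54.6 and 54.9 CPM with the drug, with an interval of -0.19 to 0.19 for the log2 difference. Treated and control values overlapped in CHLA20 and in the libraries labelled NB1691.

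**Figure D1:**
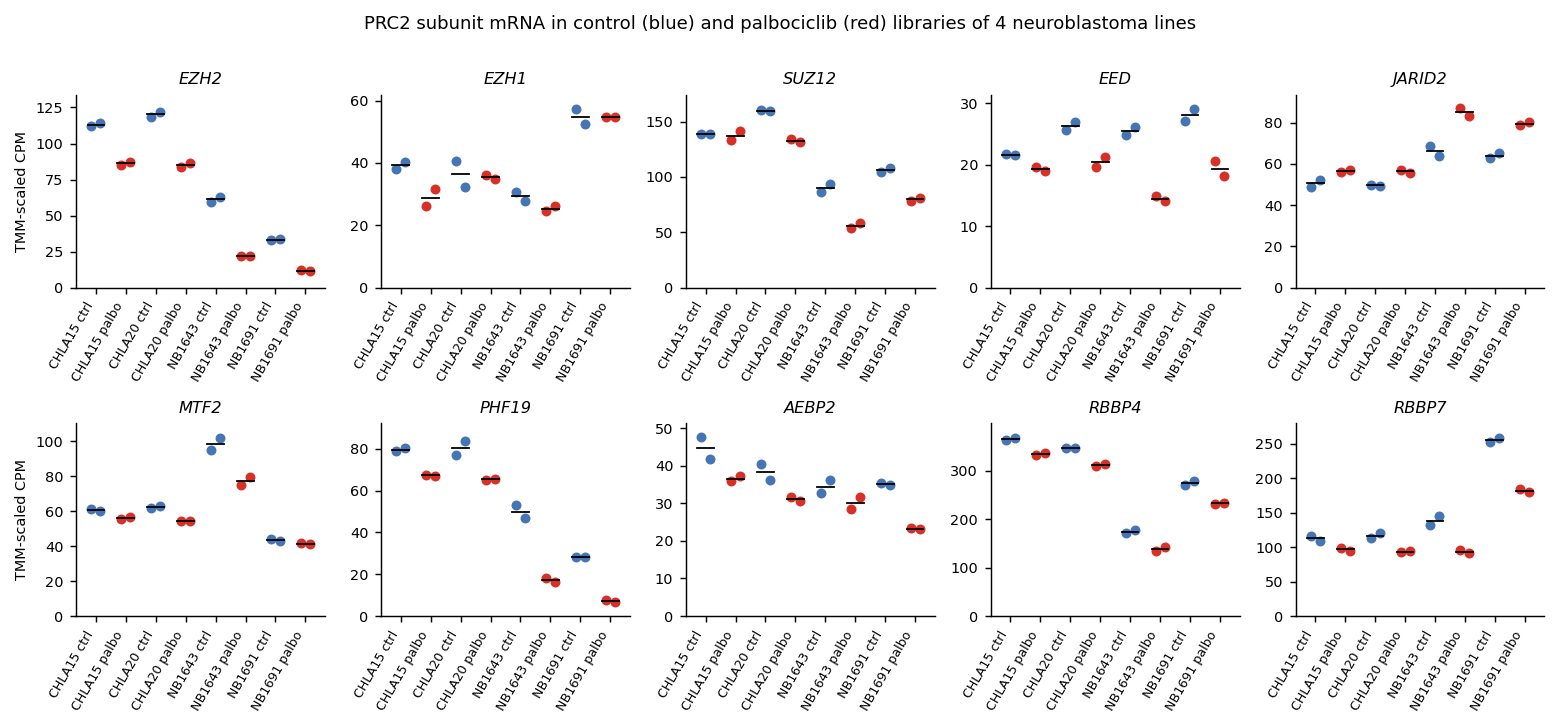
TMM-scaled CPM (y axis, from 0) of the 10 PRC2 subunits in every control (blue) and palbociclib (red) library of 4 lines (x axis), with a black bar at each group mean of 2 libraries. EZH2 and PHF19 were lower with palbociclib in every line, and JARID2 was higher with palbociclib in every line.

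The scaffold SUZ12 and the H3K27me3 reader EED, which complete the catalytic core, fell in 3 of the 4 lines. SUZ12 (chr17:30264026-30328057, plus strand) was at 138 and 139 CPM in CHLA15 controls and at 133 and 141 CPM with palbociclib, which overlapped (log2 difference -0.01, interval -0.13 to 0.10). It fell from 160.3 and 159 to 134 and 131 CPM in CHLA20 (-0.27, adjusted p = 0.000778). In NB1643 it fell from 86.7 and 93.6 to 54.2 and 57.9 CPM (-0.69, adjusted p = 1.16e-08), and in the libraries labelled NB1691 from 104 and 108 to 78.6 and 80.9 CPM (-0.42, adjusted p = 9.19e-06). The pseudogene SUZ12P1, listed at 10.8 to 35.5 CPM over the 27 libraries, could share reads with SUZ12, and its part was not tested.

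EED (chr11:85912254-85989855, plus strand) did not pass the threshold in CHLA15 either. EED read 21.7 and 21.6 CPM in CHLA15 controls and 19.7 and 19.0 CPM with palbociclib (log2 difference -0.16, adjusted p = 0.104). The other lines passed it, from 25.7 and 26.9 to 19.6 and 21.2 CPM in CHLA20 (-0.36, adjusted p = 0.000644), from 24.8 and 26.1 to 14.8 and 14.0 CPM in NB1643 (-0.81, adjusted p = 5.52e-08), and from 27.1 and 29.1 to 20.6 and 18.1 CPM in the libraries labelled NB1691 (-0.54, adjusted p = 1.09e-05).

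The Polycomb-like protein PHF19, which binds methylated lysine 36 of histone H3, fell in all 4 lines. PHF19 (chr9:123617929-123657174, minus strand) went from 53.0 and 46.6 to 18.1 and 16.1 CPM in NB1643 (log2 change -1.54, SE 0.08, adjusted p = 1.06e-11). In the libraries labelled NB1691 it went from 28.4 and 28.4 to 7.86 and 6.67 CPM (-1.96, SE 0.09, adjusted p = 1.93e-12), or 3.89-fold lower. The falls were smaller in the lines given the lower dose, from 78.7 and 80.1 to 67.6 and 67.0 CPM in CHLA15 (-0.24, adjusted p = 0.015) and from 77.1 and 83.8 to 65.1 and 65.6 CPM in CHLA20 (-0.30, adjusted p = 0.00297). MTF2 (chr1:93544792-93604636, plus strand), the other Polycomb-like member, fell in 2 lines. It fell in CHLA20 from 61.8 and 62.9 to 54.4 and 54.1 CPM (-0.20, adjusted p = 0.00695) and in NB1643 from 94.6 and 102 to 74.8 and 79.7 CPM (-0.35, adjusted p = 2.86e-05). MTF2 did not pass in CHLA15, at 61.1 and 60.2 CPM against 55.2 and 56.7 CPM (-0.12, adjusted p = 0.112), or in the libraries labelled NB1691, at 43.8 and 43.1 CPM against 41.6 and 41.0 CPM (-0.07, adjusted p = 0.325).

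JARID2, a substrate and cofactor of the other form of the complex, was the only one of the 10 that rose, and it did so in all 4 lines. JARID2 (chr6:15246300-15522273, plus strand) was at 49.0 and 52.2 CPM in CHLA15 controls and 56.3 and 57.2 CPM with palbociclib (log2 change 0.17, adjusted p = 0.0285). CHLA20 went from 50.001 and 49.5 to 57.3 and 55.8 CPM (0.18, adjusted p = 0.0164). NB1643 went from 68.9 and 63.9 to 87.1 and 83.1 CPM (0.36, SE 0.05, adjusted p = 3.05e-05), and the libraries labelled NB1691 from 62.7 and 65.3 to 78.9 and 80.3 CPM (0.31, SE 0.05, adjusted p = 0.000185). Every treated library was above every control of its line. The call in CHLA15 was lost with scaling to library totals (0.13, adjusted p = 0.105), and there the direction was kept. AEBP2 (chr12:19556979-19873735, plus strand), a zinc finger cofactor that joins JARID2 in this form, moved the other way. It fell from 47.6 and 41.9 to 36.0 and 37.2 CPM in CHLA15 (-0.29, adjusted p = 0.00558), from 40.6 and 36.3 to 31.7 and 30.6 CPM in CHLA20 (-0.30, adjusted p = 0.00448) and from 35.4 and 34.9 to 23.3 and 23.1 CPM in the libraries labelled NB1691 (-0.60, adjusted p = 6.77e-06). NB1643 missed the threshold, at 32.7 and 36.1 CPM against 28.5 and 31.7 CPM (-0.19, adjusted p = 0.0527).

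The histone-binding subunits fell in all 4 lines, RBBP7 by more than RBBP4. RBBP4 (chr1:33116743-33151812, plus strand) went from 363 and 366 to 332 and 335 CPM in CHLA15 (log2 change -0.13, adjusted p = 0.0419), from 346 and 346 to 309 and 314 CPM in CHLA20 (-0.15, adjusted p = 0.0163), from 171 and 176 to 133 and 141 CPM in NB1643 (-0.34, adjusted p = 1.03e-05) and from 270.1 and 279 to 232 and 233 CPM in the libraries labelled NB1691 (-0.24, adjusted p = 0.000508). Every treated library was below every control of its line. RBBP7 (chrX:16857406-16888485, minus strand) went from 116 and 109.6 to 98.4 and 95.1 CPM in CHLA15, from 113 and 120.3 to 92.8 and 93.8 CPM in CHLA20, from 132 and 145 to 95.5 and 91.8 CPM in NB1643 and from 253 and 258 to 185 and 179.8 CPM in the libraries labelled NB1691. It had log2 changes of -0.22, -0.32, -0.57 and -0.49 in the same order, with adjusted p from 1.54e-07 to 0.00434. Of the exon bases of RBBP4, 22.8% overlap the gene SYNC on the opposite strand, and whether the counting used strand is not given in the sources used here.

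Over the 10 members, 1 rose and 6 fell in CHLA15, 1 rose and 8 fell in CHLA20, and 1 rose and 7 fell in both NB1643 and the libraries labelled NB1691. The background was large: of the 22133 genes tested, 14.2% rose and 15.6% fell in CHLA15, 13.7% and 15.9% in CHLA20, 20.3% and 19.7% in NB1643, and 17.4% and 15.5% in the libraries labelled NB1691. The share of members that fell lay above the background in every line. The median log2 change of the members was -0.19 in CHLA15, -0.28 in CHLA20, -0.46 in NB1643 and -0.45 in the libraries labelled NB1691, whereas the median over all genes lay between -0.0021 and 0.019. EZH2, PHF19, RBBP4 and RBBP7 fell in all 4 lines, SUZ12, EED and AEBP2 in 3, MTF2 in 2 and EZH1 in 1. In CHLA15 the calls were less firm than the count shows. Without the first control library of CHLA15, or without its first palbociclib library, 2 members passed, and without the second of either 4 did. EZH2 was among them each time. Fitted without the libraries labelled NB1691, the counts were 6 in CHLA15, 9 in CHLA20 and 8 in NB1643. The shares of all genes called in that fit are not given here, so these counts cannot be set against a background.

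The change with palbociclib differed between lines for 8 of the 10 members when the interaction of line and treatment was tested, which 38% of all genes passed. When only genes with at least 10 counts in every library were fitted, 7790 of 14623 passed. Leaving out 1 library gave 5 to 9 members, with 5 (EZH2, SUZ12, EED, PHF19 and RBBP7) without either palbociclib library or without the second control library labelled NB1691. The log2 changes of EZH2 ranged over 1.11 between lines (interaction adjusted p = 5.43e-10), those of PHF19 over 1.72 (adjusted p = 3.05e-10), those of SUZ12 over 0.67 (adjusted p = 1.32e-05) and those of EED over 0.65 (adjusted p = 0.000417). RBBP7, AEBP2, MTF2 and EZH1 also passed, with adjusted p from 0.00667 to 0.0417, and JARID2 (adjusted p = 0.12) and RBBP4 (adjusted p = 0.0528) did not. Without the libraries labelled NB1691, 6 members passed: EZH2, SUZ12, EED, PHF19, RBBP7 and RBBP4. The share of all genes that passed in that fit is not given here, so this count cannot be set against a background. The 15 replication and proliferation genes also changed by different amounts between lines, in an order that not all of these members followed. All 15 fell in CHLA20, NB1643 and the libraries labelled NB1691 and 10 of 15 in CHLA15, with medians of -0.25 in CHLA15, -0.60 in CHLA20, -3.00 in NB1643 and -2.77 in the libraries labelled NB1691. MKI67 itself went from 285 and 225 to 6.83 and 6.68 CPM in NB1643, but was at 345 and 409 CPM in treated CHLA15 cells against 490.0 and 483 CPM in their controls. The part of proliferation in the members' values was not tested.

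**Figure D2:**
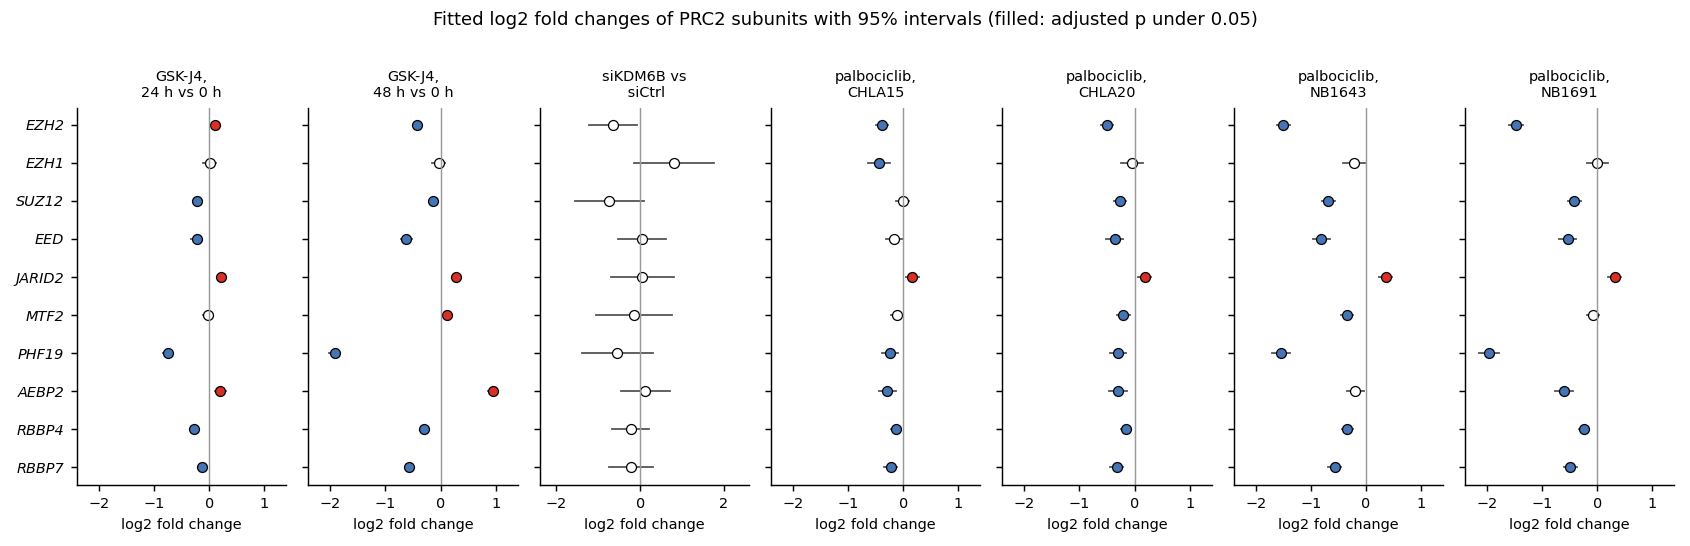
Fitted log2 fold changes (x axis) of the 10 PRC2 subunits (y axis) with 95% intervals in 7 comparisons; filled points passed an adjusted p of 0.05 (red higher, blue lower) and open points did not. PHF19 reached -1.92 after 48 h of GSK-J4 and -1.96 with palbociclib in the libraries labelled NB1691, and no point was filled for siKDM6B.

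The EZH2 to EZH1 ratio was computed in each library from counts per kb of annotated exon. With palbociclib the ratio fell from 1.26 and 1.46 to 0.573 and 0.541 in NB1643, from 0.373 and 0.414 to 0.148 and 0.133 in the libraries labelled NB1691, and from 1.89 and 2.44 to 1.503 and 1.60 in CHLA20. CHLA15 showed no such shift, at 1.91 and 1.83 in controls and 2.12 and 1.80 with palbociclib. The mean log2 change over the 4 lines was -0.80, with a two-sided exact permutation p of 0.00617 over all arrangements within lines and an adjusted p of 0.0185 over the 9 ratio tests made. Without the libraries labelled NB1691 it was -0.57 (exact permutation p = 0.037). The height of the ratio depends on the length taken for each gene. With the canonical transcripts in place of all annotated exons, the ratio was 3.40 and 3.94 in NB1643 controls and 1.54 and 1.46 with palbociclib, so that EZH2 stayed above EZH1 there. The libraries labelled NB1691 then read 1.004 and 1.11 without and 0.399 and 0.357 with the drug. The log2 changes were the same.

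**Figure D3:**
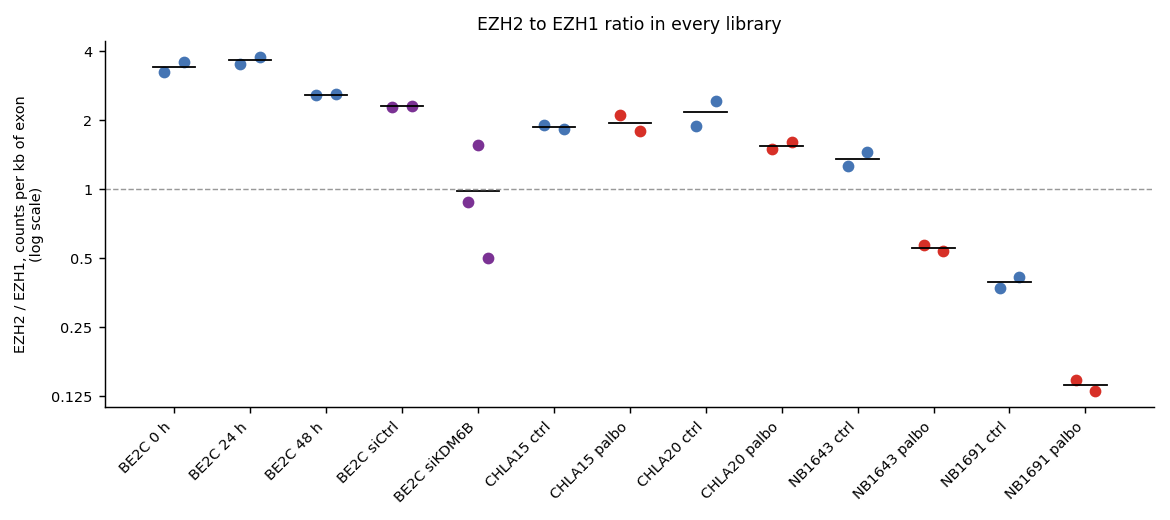
EZH2 to EZH1 ratio of counts per kb of exon (y axis, log scale) in each of the 27 libraries by group (x axis), with a bar at the group mean and a dashed line at 1. The ratio was highest in BE2C at 24 h (3.54 and 3.77) and lowest in the libraries labelled NB1691 with palbociclib (0.148 and 0.133). Whether a library lies above 1 can depend on the length taken for each gene.

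The balance of accessory subunits fell in all 4 lines. The ratio of MTF2 and PHF19 to JARID2 and AEBP2, per kb of exon, fell from 1.52 and 1.56 to 0.848 and 0.884 in NB1643, from 0.768 and 0.742 to 0.512 and 0.488 in the libraries labelled NB1691, from 1.58 and 1.76 to 1.38 and 1.42 in CHLA20 and from 1.497 and 1.54 to 1.37 and 1.35 in CHLA15. The mean log2 change was -0.46, with a two-sided exact permutation p of 0.0015, the smallest these arrangements can give (adjusted p = 0.00694), and -0.41 without the libraries labelled NB1691 (exact permutation p = 0.00926). The RBBP4 to RBBP7 ratio rose in every line by 0.10 to 0.25 on the log2 scale, with a mean of 0.18 and the same exact p of 0.0015 (adjusted p = 0.00694). Without the libraries labelled NB1691 the mean was 0.16 (exact permutation p = 0.00926).

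Among the untreated controls of the 4 lines, all 10 members differed between lines, as did 91.2% of all genes. Without the libraries labelled NB1691, 10 members and 14482 of 20053 genes differed. CHLA15 and CHLA20 were the pair with the fewest calls, with 2 members called (SUZ12 and EED, both higher in CHLA20) against a background of 12.4%. This count rested on single libraries: it was 0 without the first CHLA15 control, 1 without the second, and 3 and 1 without the first and second CHLA20 control, and the number of all genes called went from 2736 to 1130 without the first CHLA15 control. NB1643 differed from CHLA15 in 10 members and from CHLA20 in 8, against backgrounds of 64.6% and 64.5%. EZH2 was highest in CHLA20 and CHLA15, whose difference did not pass the threshold (log2 difference 0.09, adjusted p = 0.307), then in NB1643, with a log2 difference from CHLA15 of -0.88 (adjusted p = 3.57e-11). MTF2 went the other way and was 0.69 higher in NB1643 than in CHLA15 (adjusted p = 9.84e-10). RBBP4 was lower in NB1643 than in CHLA15 (log2 difference -1.07, adjusted p = 3.09e-13) and RBBP7 higher (0.29, adjusted p = 0.00012).

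The controls labelled NB1691 differed from CHLA15 in 10 members, from CHLA20 in 8 and from NB1643 in 7, against backgrounds of 78%, 77.5% and 80.7%. In them EZH2 was lowest and EZH1 highest of the 4 lines, with log2 differences from NB1643 of -0.89 for EZH2 and 0.90 for EZH1 (adjusted p = 1.86e-11 and 4.88e-08). FN1 alone held 61801 and 61802 CPM there, and with scaling to library totals the median over all genes against NB1643 moved from 0.13 to -0.28. Under that scaling SUZ12 turned from higher to lower against NB1643. EED and AEBP2 changed sign too, but with TMM their differences had not passed the threshold (adjusted p = 0.0645 and 0.693).

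On a scale shared by all 27 libraries and per kb of exon, RBBP4 was the most abundant member in BE2C at 0 h (38.2), CHLA15 controls (37.3) and CHLA20 controls (35.2), and RBBP7 in NB1643 controls (18.7) and the controls labelled NB1691 (32.5), all in CPM per kb. In NB1643, RBBP4 was close behind at 18.2 CPM per kb. EZH1 was the lowest in BE2C at 0 h (3.55 CPM per kb), EED in CHLA15 (3.00), CHLA20 (3.62) and NB1643 (3.61), and EZH2 in the controls labelled NB1691 (2.88). Per kb of canonical transcript RBBP7 led in all of these groups, from 48.1 CPM per kb in CHLA15 to 105 in the controls labelled NB1691, so that the order of genes depends on the length used.

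In BE2C cells treated with GSK-J4, PHF19 fell and AEBP2, JARID2 and MTF2 rose. PHF19 was at 63.2 and 64.2 CPM at 0 h, 37.9 and 37.6 CPM at 24 h and 16.8 and 16.8 CPM at 48 h. The log2 change was -0.75 (SE 0.04, adjusted p = 1.54e-19) at 24 h and -1.92 (SE 0.05, adjusted p = 2.89e-34) at 48 h, or 3.79-fold lower, and 1.51% of all genes tested had a lower value than PHF19 at 48 h. AEBP2 rose from 29.7 and 29.0 CPM to 34.3 and 33.1 CPM at 24 h (0.20, adjusted p = 0.000648) and to 56.8 and 56.8 CPM at 48 h (0.95, SE 0.05, adjusted p = 4.55e-23). JARID2 rose from 77.3 and 79.1 CPM to 91.2 and 90.6 CPM at 24 h (0.22, adjusted p = 1.25e-06) and 95.9 and 93.6 CPM at 48 h (0.28, adjusted p = 1.98e-09). MTF2 was at 64.9 and 64.5 CPM at 0 h and 70.4 and 69.0 CPM at 48 h (0.11, adjusted p = 0.0114), a call that DESeq2 did not make (0.08, adjusted p = 0.159). The libraries of 48 h lay outside the range of those at 0 h for all 4 accessory subunits. Markers of cell state also changed at 48 h, where 37.1% of all genes rose and 34.4% fell. Of 8 adrenergic genes 7 fell and 1 rose (median log2 change -0.48), and all 4 tested mesenchymal genes rose (median 1.5). Of the 5 mesenchymal markers, only 2 had a mean of at least 1 CPM at 0 h and 3 at 48 h. Their summed level went from 199 and 209.4 CPM to 503.6 and 508.8 CPM. Of 4 fibroblast genes 3 fell. The part of these markers in the members' values was not tested.

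The catalytic subunits differed in the time course. EZH2 was at 118 and 119 CPM at 0 h, 126 and 128 CPM at 24 h and 87.5 and 87.6 CPM at 48 h, so that it first rose by 0.10 on the log2 scale (adjusted p = 0.00653) and then fell between 24 h and 48 h (log2 change -0.54, adjusted p = 6.35e-19). The early rise did not pass with DESeq2 (0.09, adjusted p = 0.0523). EZH1 read 23.4 and 21.4, 23.0 and 22.1, and 22.0 and 21.8 CPM at the 3 times, and its log2 difference at 48 h was -0.03 with a 95% interval of -0.15 to 0.09. The EZH2 to EZH1 ratio per kb was 3.26 and 3.60 at 0 h, 3.54 and 3.77 at 24 h and 2.58 and 2.61 at 48 h. Its log2 change per 24 h was -0.20 (two-sided exact permutation p = 0.111 over 90 arrangements, of which the smallest possible is 0.022).

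SUZ12 and EED parted in time. SUZ12 was lowest at 24 h, with 64.2 and 62.6, 54.7 and 54.6, and 57.4 and 58.5 CPM at the 3 times. Its log2 change at 48 h of -0.13 (adjusted p = 0.00301) did not pass with upper quartile scaling (-0.02, adjusted p = 0.647), which moved the median of all genes to 0.16. EED went down step by step, with 42.7 and 40.4, 36.4 and 34.8, and 27.02 and 27.01 CPM, and its log2 change at 48 h was -0.62 (adjusted p = 1.91e-15). RBBP4 fell by 24 h, from 328 and 326 to 275 and 268 CPM, and was at 266 and 263 CPM at 48 h, where its log2 change from 24 h was -0.04 (adjusted p = 0.282). RBBP7 fell mostly after 24 h, from 166 and 165 CPM through 148 and 152 CPM to 112 and 111 CPM, with a log2 change of -0.57 at 48 h (adjusted p = 5.68e-21).

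**Figure D4:**
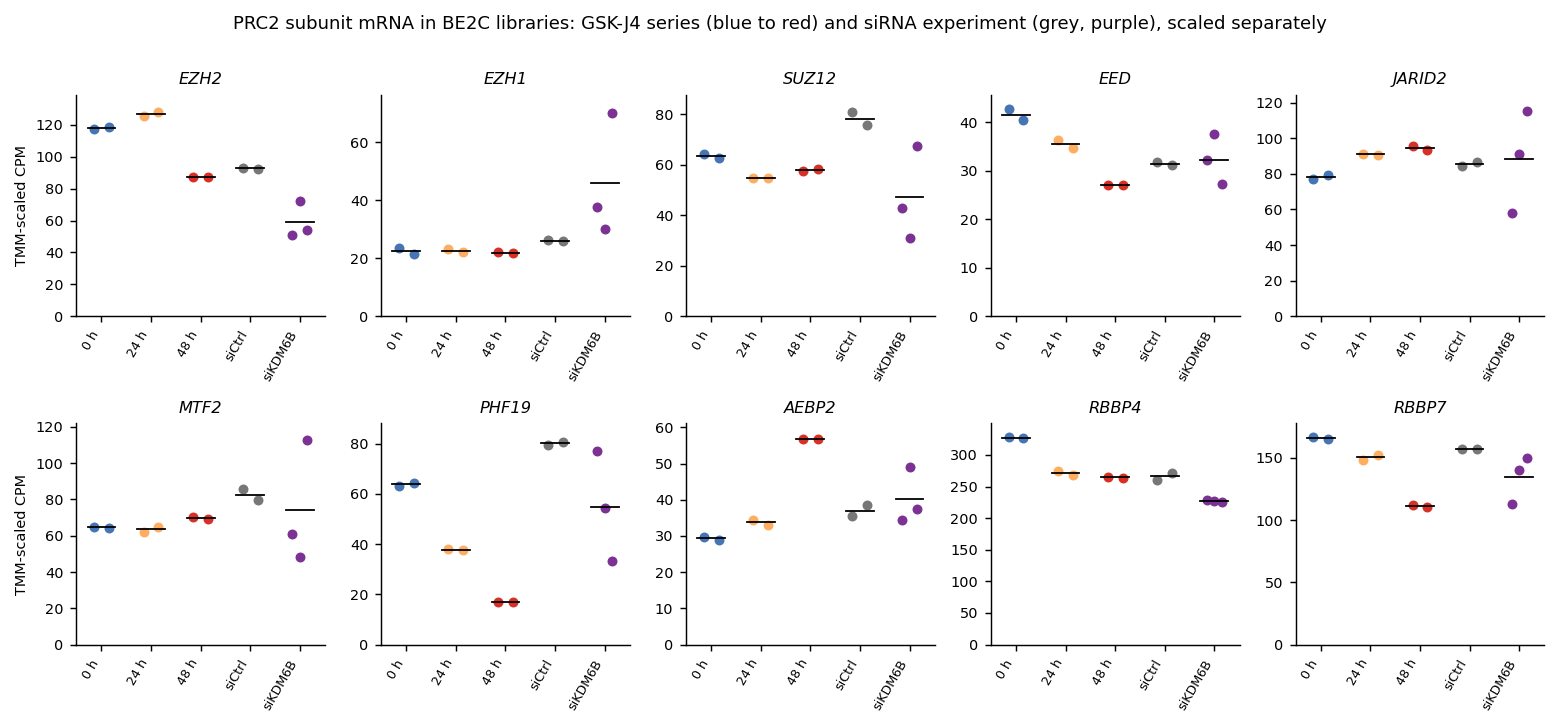
TMM-scaled CPM (y axis, from 0) of the 10 PRC2 subunits in every BE2C library: GSK-J4 at 0 h, 24 h and 48 h, siCtrl and siKDM6B (x axis), with a bar at each group mean; the siRNA libraries were scaled apart. PHF19 fell and AEBP2 rose at each time, EZH1 stayed between 21.4 and 23.4 CPM with GSK-J4, and the 3 siKDM6B libraries were spread widely for EZH1, SUZ12, MTF2 and PHF19.

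By number, 3 members rose and 5 fell at 24 h, where 27.3% of 17734 genes rose and 28% fell. At 48 h against 0 h, 3 rose and 6 fell (37.1% and 34.4% of all genes), and between 24 h and 48 h, 2 rose and 4 fell (25.9% and 28%). The share of members that rose lay near the background in each comparison, and the share that fell lay above it. With a log2 change of more than 0.5 in size also required, 1, 4 and 3 members were left in the 3 comparisons. The share of all genes at that cut was not counted, so these numbers cannot be set against a background. The 4 at 48 h were PHF19, AEBP2, EED and RBBP7. The members' median was -0.08 at 24 h and -0.22 at 48 h, against 0.014 and 0.055 over all genes. The ratio of MTF2 and PHF19 to JARID2 and AEBP2 per kb fell from 1.23 and 1.22 to 0.829 and 0.858 and then to 0.609 and 0.609. Its log2 change was -0.50 per 24 h, with the smallest exact permutation p that 90 arrangements can give (0.022, two-sided) and an adjusted p of 0.05, which does not lie below the threshold. The RBBP4 to RBBP7 ratio changed by 0.13 per 24 h on the log2 scale (exact permutation p = 0.133). Proliferation genes fell here too, 13 of 15 at 24 h and 15 of 15 at 48 h with a median of -0.38, and their part was not tested.

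The siRNA experiment gave no call for any member, nor for any of the 17472 genes tested (0%). At an unadjusted p under 0.05, 1 member (EZH2) and 1615 genes passed with edgeR. These numbers rested on single libraries, with 0 members and 296 or 278 genes without the first or second siCtrl library, 1 member (PHF19) and 2328 genes without N1, 2 members and 2424 genes without N2, and 3 members and 2886 genes without N33. DESeq2 called 164 genes and limma-voom 0, and neither called a member. The 3 siRNAs spread the members widely, and the common coefficient of variation was 0.35 here against 0.0219 with GSK-J4. EZH2 was lower in all 3 libraries labelled siKDM6B, at 51.1, 72.4 and 54.3 CPM (N1, N2 and N33) against 93.2 and 92.5 CPM in siCtrl, a log2 difference of -0.65 with an interval of -1.21 to -0.08 (adjusted p = 0.523). SUZ12 was also lower in each, at 43.0, 30.8 and 67.3 CPM against 80.9 and 75.7 CPM (-0.73, interval -1.56 to 0.09). EZH1 was higher in each, at 37.5, 29.9 and 70.2 CPM against 26.3 and 25.9 CPM (0.81, interval -0.14 to 1.76). The 15 proliferation genes, none of them called, were all lower on average (median log2 difference -0.81), and their summed level was 1409 to 3631 CPM with siKDM6B against 4578 to 4659 CPM in siCtrl. Their part in the members' values was not tested.

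The accessory subunits did not line up across the 3 siRNAs. MTF2 was at 61.0 and 48.4 CPM with N1 and N2 but 113 CPM with N33, against 85.6 and 79.4 CPM in siCtrl. PHF19 was at 77.2, 54.5 and 33.2 CPM, below 79.5 and 80.6 CPM in siCtrl, and JARID2 at 58.2, 91.3 and 115 CPM on both sides of its controls at 84.4 and 86.4 CPM. RBBP4 had a narrow range, at 229, 227 and 226 CPM against 261 and 272 CPM (log2 difference -0.23, adjusted p = 0.733). RBBP7 was at 113, 141 and 150.2 CPM against 158 and 157 CPM. EED lay on both sides of its controls, at 32.2, 37.6 and 27.3 CPM against 31.8 and 31.1 CPM, and AEBP2 was at 34.4, 49.0 and 37.5 CPM against 35.4 and 38.5 CPM. The EZH2 to EZH1 ratio per kb was 0.883, 1.57 and 0.502 against 2.30 and 2.32 in siCtrl, without overlap. With canonical transcript lengths it was 2.38, 4.23 and 1.35 against 6.185 and 6.245. Its log2 change of -1.38 had a two-sided exact permutation p of 0.2, and with 3 against 2 libraries no p below 0.1 can be reached. The same test gave a p of 0.5 for the ratio of MTF2 and PHF19 to JARID2 and AEBP2 (-0.38) and of 1 for RBBP4 to RBBP7 (0.0058).

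Other genes of the Polycomb system were counted in the same fits. With palbociclib, among 21 members of PRC1, the complex that ubiquitinates histone H2A, 3 rose and 2 fell in CHLA15, 2 and 3 in CHLA20, 5 and 5 in NB1643, and 3 and 6 in the libraries labelled NB1691, beside 14.2% and 15.6%, 13.7% and 15.9%, 20.3% and 19.7%, and 17.4% and 15.5% of all genes. CBX8, a chromodomain protein of PRC1, rose in NB1643 (log2 change 0.39), and PCGF5, which belongs to its variant forms, fell there (-0.87). Of the 4 tested genes for other PRC2 partners, 2 rose in CHLA15 and 1 in the libraries labelled NB1691, both times including EPOP (0.24 and 0.27), and 1 fell in every line. LCORL fell in each of the 4 lines (-0.31, -0.26, -0.50 and -0.44), and the PRC2 inhibitor EZHIP, listed as CXorf67, stayed at or below 0.153 CPM in all libraries. KDM6B rose in CHLA20 (0.46), NB1643 (0.72) and the libraries labelled NB1691 (0.48), but did not pass in CHLA15.

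RBBP4 is also a subunit of CAF-1, and both RBBP4 and RBBP7 are subunits of NuRD and SIN3 complexes. The other genes of these complexes did not all move with them. The CAF-1 genes CHAF1A and CHAF1B, which assemble histones at replication forks, both fell in every line, with log2 changes of CHAF1A between -0.19 in CHLA15 and -1.71 in NB1643. Of 11 NuRD genes, 2 or 3 fell and at most 3 rose in any line. Of 8 SIN3 genes 1 fell in CHLA15 and CHLA20, 6 in NB1643 and 3 in the libraries labelled NB1691. Over all genes, 15.6% fell in CHLA15, 15.9% in CHLA20, 19.7% in NB1643 and 15.5% in the libraries labelled NB1691. The shares that rose were 14.2%, 13.7%, 20.3% and 17.4% in the same order. Among the 13 pRB and E2F genes, 6, 9, 10 and 8 fell in the 4 lines, among them the repressor E2F8 in CHLA15 (log2 change -0.60) and CHLA20 (-1.12).

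At 48 h of GSK-J4, where 37.1% of all genes rose and 34.4% fell, the same lists were counted. In PRC1, 11 of 21 rose and 8 fell, with PCGF5 at 0.96 and SCMH1 at -1.22 on the log2 scale. Of the NuRD genes 9 of 11 fell, among them MTA3 (-0.93) and MTA2 (-0.80), and 2 rose. Of 8 SIN3 genes, 4 rose and 3 fell. Both CAF-1 genes fell, CHAF1B (-0.40) and CHAF1A (-0.37), and of the PRC2 partners LCOR (0.77), LCORL (0.39) and EPOP, listed as C17orf96 (0.39), rose. KDM6B itself, a target of the compound, rose from 7.42 and 8.16 CPM at 0 h to 16.1 and 16.6 CPM and then 23.7 and 22.8 CPM. Of the 13 pRB and E2F genes, 8 fell and 1 rose.

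Among the genes whose log2 CPM followed EZH2 most closely over the 16 control and palbociclib libraries, centred within lines, were DEPDC1B, PRIM1, TMPO-AS1 and BARD1, with Pearson r from 0.994 to 0.996. At the lower cut of 0.9, 824 of 15088 genes (5.46%) had an r above it with EZH2 while 17 (0.113%) did with EZH1. The closest to EZH1 were ANKRD20A19P (r = 0.969), LENG8, NSUN5P1, ZFC3H1 and AHSA2. Over the 12 libraries without those labelled NB1691, the named genes had r of 0.993 to 0.997 with EZH2 and of 0.928 to 0.984 with EZH1, and other genes ranked above them, with 8.64% of genes above 0.9 for EZH2 and 0.365% for EZH1. Over the 6 GSK-J4 libraries the closest to EZH2 were SEZ6, MTHFD1L, SCD, TBC1D16 and MTG2, with r of at least 0.998, and among those to EZH1 were UBE2V2, TERF1, ELAC1 and BIVM (r from 0.961 to 0.985). No gene was in the lists of both experiments. The libraries share line, treatment and depth, and these coefficients are descriptions only.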

How the data were processed

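Total RNA of 27 libraries of human neuroblastoma lines was analysed from 38 deposited files, with the 22 files of BE2C cells summed in pairs into 11 libraries (chi-square per degree of freedom 1.48 to 1.65 within pairs and 1.89 to 171 between libraries). Both files of a KDM6B siRNA share a number and were taken as 1 library. The authors aligned paired reads to GRCh37 and deposited raw counts per gene symbol from htseq-count. The submitters' processing notes name STAR 2.5.3a. The methods name a mouse annotation, while the symbols are human, and the labels name xenograft tissue for the extraction where the methods name cells. The summary lines of htseq-count were left out.

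Each experiment was fitted apart with edgeR 4.0.16 in R 4.3.3 (TMM, filterByExpr, quasi-likelihood F test, Benjamini-Hochberg adjustment over all genes, threshold 0.05). The palbociclib fit held all 16 libraries, with contrasts within lines and the interaction of line and treatment. SE is the log2 change divided by the square root of F. Ratios were taken per kb of merged annotated exons (GENCODE, GRCh37) and compared by two-sided exact permutation tests, within lines for palbociclib. Intervals of log2 changes are at 95%. The tests were checked on simulated counts. The median shift of TMM-scaled values was left in place. Alternatives were DESeq2 1.42.0, limma 3.58.1 (voom, the study's method), other scalings and filters, a log2 change above 0.5, a replicate block, each file as a sample, each line alone and leaving out each library. Leaving out the libraries labelled NB1691 and using canonical transcript lengths were added after seeing the data. All 10 members are named whatever their values. From related lists, counts are given, with at most 2 highest and 2 lowest called genes for GSK-J4 at 48 h and for palbociclib in each line, and the 5 genes closest to EZH2 and EZH1 in pattern with a mean of at least 1 CPM. Some genes that this rule names are not reported here. KDM6B, MKI67, MYCN, FN1 and EZHIP are named where a result or a label turns on them. The members and lists were chosen with earlier results of these data known. Tables and figures were made with Python, pandas, NumPy and matplotlib.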

Additional observations from a re-analysis of the deposited data

Results flagged for a closer look

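The response to palbociclib differed between lines by the interaction test for 8 members, a test that 38% of all genes passed. The highest minus the lowest log2 change over the 4 lines was 1.11 for EZH2, 0.44 for EZH1, 0.67 for SUZ12, 0.65 for EED, 0.27 for MTF2, 1.72 for PHF19, 0.41 for AEBP2 and 0.34 for RBBP7. EZH2, SUZ12, EED and RBBP7 had their lowest value in NB1643, as had MTF2, while PHF19 and AEBP2 had it in the libraries labelled NB1691 and EZH1 in CHLA15. Without the libraries labelled NB1691 the interaction was lost for EZH1 (adjusted p = 0.155), MTF2 (adjusted p = 0.0808) and AEBP2 (adjusted p = 0.837). The lines received different doses, so that line and dose cannot be told apart.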

How the results depend on the processing

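Requiring a log2 change above 0.5 in size left 1 member with GSK-J4 at 24 h, 4 at 48 h and 3 between 24 h and 48 h. With palbociclib it left 0 in CHLA15, 0 in CHLA20, 5 in NB1643 and 4 in the libraries labelled NB1691. The shares of all genes at that cut were not counted. With each siRNA file as a sample 1 member was called, as were 2354 of 15325 genes. That setting counts the 2 files of a library as separate samples. Leaving out 1 library at a time gave 7 to 8, 8 to 9 and 5 to 6 members for GSK-J4, 0 for siKDM6B, 2 to 7 in CHLA15, 7 to 9 in CHLA20, 8 to 10 in NB1643, 8 in the libraries labelled NB1691, 5 to 9 for the interaction and 10 for the control lines. The interaction count was 5 without the first or second palbociclib library or the second control library labelled NB1691. The cause was not tested.

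For ratios, leaving out 1 library gave -0.84 to -0.75 for EZH2 to EZH1 with palbociclib, -0.27 to -0.16 per 24 h with GSK-J4 and -1.79 to -0.97 with siKDM6B, on the log2 scale. MTF2 and PHF19 to JARID2 and AEBP2 gave -0.48 to -0.44, -0.51 to -0.50 and -0.65 to -0.14, and without either 24 h library the exact permutation p was 0.0667. RBBP4 to RBBP7 gave 0.17 to 0.20, 0.10 to 0.17 and -0.12 to 0.094, and turned sign without the first siCtrl library (-0.026) or N1 (-0.12).

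Scaling to library totals turned the sign of 7 differences of the controls labelled NB1691, to -0.032 for EED and -0.069 for JARID2 against CHLA15, -0.31 for EED and -0.042 for JARID2 against CHLA20, and -0.18 for SUZ12, -0.27 for EED and -0.38 for AEBP2 against NB1643.

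The replicate numbers did not pair the samples: deviations of same-numbered libraries had correlations of 0.00994 to 0.0612 (GSK-J4) and 0.00387 to 0.131 (palbociclib). With the replicate number as a block 8, 9 and 6 members were called for GSK-J4 and 7, 9, 10 and 8 with palbociclib, EZH1 (adjusted p = 0.0428) and AEBP2 (adjusted p = 0.0187) being added in NB1643 by edgeR. No paired analysis was possible for siKDM6B because its numbers name different siRNAs.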
